A study of Oryza sativa with 6 samples.

Results

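The tapetum regulators examined here are 8 named rice genes of anther development: MSP1, TDL1A, UDT1, GAMYB, GAMYB-LIKE 2, TIP2, TDR and EAT1. They were taken by gene identifier from the deposited table of 39367 genes, and all 8 were found there. RNA was sequenced from panicles, the flowering heads of rice (Oryza sativa), in 3 libraries of the wild type Nipponbare and 3 of CTB3-cr1, a mutant line that the labels call a knockdown of CTB3 and the table's headings a knockout. Every panicle had been in the cold for 1 day under a regime abbreviated CS-PT, which is not spelled out in the sources used here, so both groups share the cold. The labels call the 3 libraries of a group biological replicates without saying how many plants each holds. CTB3-cr1 was the only mutant line, so an effect of CTB3 cannot be told apart from anything else that sets this line apart, and CTB3 itself was not analysed here because its name is not paired with an identifier in the sources used here.

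The tapetum is the innermost wall layer of the anther. It nourishes the meiocytes and microspores, supplies material for the pollen wall and then breaks down by programmed cell death, and in rice its failure under cold is a known route to male sterility. Its regulators form a cascade. The receptor kinase MSP1 and its small secreted ligand TDL1A set the identity of the early wall cells, the basic helix-loop-helix (bHLH) factor UDT1 and the gibberellin-responsive MYB factor GAMYB act in early tapetum differentiation, and the bHLH factors TIP2, TDR and EAT1 carry the programme towards cell death, with TIP2 and TDR binding each other and EAT1 acting after them. GAMYB-LIKE 2 has a Myb DNA-binding domain in the deposited annotation and is placed beside GAMYB by its name only.

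All libraries held floral RNA, and the anther was represented. Library totals ran from 14422565 to 16982031 counts. The 9 floral organ markers had a summed level of 867.6 to 921.6 FPKM (fragments scaled by the authors to gene length and library size) in CTB3-cr1 and 755.9 to 1049 FPKM in Nipponbare, and 0 of them were at 0 throughout. The 6 meiocyte markers summed to 54.6 to 89.6 FPKM and 56.6 to 68.3 FPKM, the 10 leaf photosynthesis markers to 1066 to 1245 FPKM and 1071 to 1791 FPKM, and the 27 genes with pollen-specific or pollen allergen names to 913 to 1158 FPKM and 779 to 1220 FPKM, in the same order of genotypes. Of the photosynthesis markers 1, and of the pollen names 8, were at 0 in every library. Only 10 of the pollen names passed the expression filter and 17 did not. They were picked by those words alone, so their sum does not by itself show pollen RNA. On the leading principal component of the genes tested, Nipponbare replicate 2 scored 80.3 and all others between -54.8 and 17.2. That library also had the highest photosynthesis sum, 1791 FPKM.

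Of the 8 regulators, EAT1 and GAMYB-LIKE 2 were lower in every CTB3-cr1 library than in any Nipponbare library, by 2.86-fold and 6.26-fold in the fitted values. The levels of the other 6 overlapped between the genotypes. In edgeR's quasi-likelihood test, adjusted over 25636 genes, 0 of the 8 passed an adjusted p of 0.05, where 0.078% of all genes passed. At an unadjusted p under 0.05 there were 2, EAT1 and GAMYB-LIKE 2, beside 5.25% of all genes. DESeq2 on the same counts called the same 2 as lower (0.714% of its genes were called, 0.47% as lower). The authors' deposited table calls them too, with 0.621% of genes called and 0.409% as lower. Its values also come from DESeq2, so it is not a second source. limma-voom called 0 of the 8. Whether these 2 genes are called thus differed between tools. When 25636 genes were simulated for this comparison, 14 of the 126 calls made by edgeR were false, and it found 89% of 4-fold and 23% of 2-fold changes. DESeq2 made 229 calls, of which 69 were false, and found 99% and 61%. Whether these rates apply to the calls of EAT1 and GAMYB-LIKE 2 was not tested. Groups that did not overlap were seen in 2 of 8 members, both lower in CTB3-cr1, and in 10.5% of all genes tested. Of all genes tested, 5.36% were lower in CTB3-cr1 without overlap. The 8 members were chosen with earlier results of these data known, so these shares do not test the regulators as a set. The median log2 fold change of the 8 was -0.14, against -0.00 over all genes tested. In whole panicles, fewer tapetal cells, less RNA per tapetal cell and other differences between the panicles, such as anther stage, cannot be told apart.

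**Figure D1:**
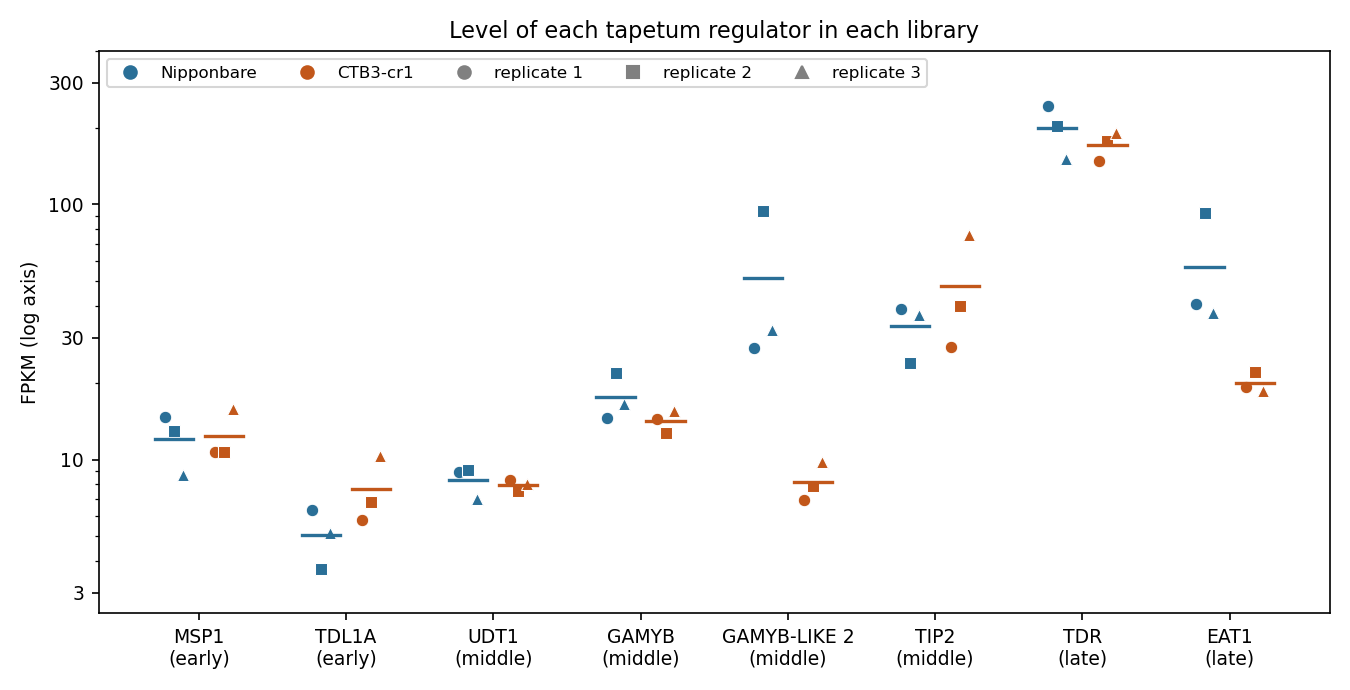
FPKM on a log axis of each of the 8 regulators, in cascade order from left to right, with 1 point per library, shaped by replicate number, and a line at the mean of each genotype. The GAMYB-LIKE 2 and EAT1 points of the genotypes do not overlap, and Nipponbare replicate 2 is the highest library for both, at 94.2 and 92.6 FPKM.

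On the length-scaled FPKM level, TDR was the most abundant regulator in both genotypes, and the order below it differed. In Nipponbare the mean levels ran from TDR at 199 FPKM through EAT1 (57.0), GAMYB-LIKE 2 (51.3), TIP2 (33.2), GAMYB (17.7), MSP1 (12.1) and UDT1 (8.34) to TDL1A at 5.08 FPKM. The library values of EAT1 and GAMYB-LIKE 2, of GAMYB-LIKE 2 and TIP2, of GAMYB and MSP1, and of MSP1 and UDT1 overlapped, so these neighbours were not separated. In CTB3-cr1, TIP2 took the place after TDR at 47.8 FPKM, EAT1 followed at 20.0 FPKM, and GAMYB-LIKE 2 stood at 8.20 FPKM, between MSP1 (12.4) and UDT1 (7.97). There, the values of GAMYB and MSP1, of GAMYB-LIKE 2 and UDT1, and of UDT1 and TDL1A overlapped. TDR lay above 98.2% of the tested genes in mean FPKM, and TDL1A above 39.9%.

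The early pair, which specifies wall cells, did not separate the genotypes. MSP1 (Os01g0917500, chromosome 1 from 40018401 to 40023853) stood at 10.7, 10.7 and 15.9 FPKM in CTB3-cr1 replicates 1, 2 and 3 and at 14.6, 12.9 and 8.69 FPKM in the Nipponbare replicates. Both the highest and the lowest library were a replicate 3, CTB3-cr1 at the top and Nipponbare at the bottom, and the groups overlapped throughout. Its log2 fold change, CTB3-cr1 over Nipponbare, was 0.04 ± 0.24 (SE), with a 95% interval from -0.51 to 0.59 and an edgeR adjusted p of 0.996. TDL1A (Os12g0472500, chromosome 12 from 16988415 to 16990867), the ligand, had 95, 116 and 189 counts in CTB3-cr1 and 106, 55 and 93 in Nipponbare, or 5.79, 6.80 and 10.4 FPKM against 6.34, 3.72 and 5.17 FPKM. CTB3-cr1 replicate 3 was highest and Nipponbare replicate 2 lowest, and the remaining 4 libraries of the genotypes overlapped. The log2 fold change of 0.59 ± 0.30 (SE) did not pass (edgeR adjusted p = 0.976), and its interval, from -0.12 to 1.29, leaves room for a rise of 2.45-fold. It was 0.31 without CTB3-cr1 replicate 3. Positions here and below follow the authors' annotation, for which the sources used here name no build, and all 8 members are annotated as protein-coding genes.

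UDT1 and GAMYB, which act as the tapetum differentiates, overlapped between the genotypes. UDT1 (Os07g0549600, chromosome 7 from 21814314 to 21816011) was the steadiest of the 8, with 8.32, 7.55 and 8.04 FPKM in CTB3-cr1 and 8.94, 9.06 and 7.02 FPKM in Nipponbare. The highest library exceeded the lowest by 1.29-fold, and both were Nipponbare libraries. Its log2 fold change was -0.07 ± 0.19 (SE), with an interval from -0.52 to 0.39 (edgeR adjusted p = 0.996). GAMYB (Os01g0812000, chromosome 1 from 34508452 to 34512776) had 14.4, 12.7 and 15.4 FPKM in CTB3-cr1 and 14.6, 21.9 and 16.5 FPKM in Nipponbare. Only Nipponbare replicate 2 stood clear of the rest. The log2 fold change was -0.32 ± 0.17 (SE), from -0.72 to 0.09 (edgeR adjusted p = 0.991), and -0.13 without that library.

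GAMYB-LIKE 2 (Os03g0578900, chromosome 3 from 21212377 to 21214189) showed the widest gap between the genotypes among the 8. It had 177, 210 and 279 counts in CTB3-cr1 and 717, 2173 and 900 in Nipponbare, which are 6.91, 7.89 and 9.80 FPKM against 27.5, 94.2 and 32.1 FPKM. Every Nipponbare library was above every CTB3-cr1 library, and on the CPM scale (counts scaled to library size with TMM factors, not to gene length) the lowest Nipponbare library was 2.80-fold above the highest CTB3-cr1 library. The log2 fold change was -2.65 ± 0.49 (SE), with an interval from -3.79 to -1.51. Among 25636 genes, 0.382% had a larger absolute log2 fold change, and its unadjusted p of 0.000821 in edgeR was the 72nd smallest, which became an adjusted p of 0.292. DESeq2 gave an adjusted p of 8.36e-07, and the authors' deposited table, also from DESeq2, one of 8.47e-07. Without Nipponbare replicate 2 the log2 fold change was -1.86 ± 0.19 (SE) and the edgeR adjusted p 0.0772, so the difference in mean CPM went from 6.27-fold to 3.63-fold while its error shrank.

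TIP2 and TDR, the bHLH partners, overlapped between the genotypes, and neither passed in edgeR or DESeq2. TIP2 (Os01g0293100, chromosome 1 from 10664792 to 10666903) had 27.7, 40.0 and 75.7 FPKM in CTB3-cr1 and 38.8, 23.9 and 36.9 FPKM in Nipponbare. CTB3-cr1 replicate 3 was the highest library and Nipponbare replicate 2 the lowest, the reverse of the order in GAMYB-LIKE 2 for that Nipponbare library. The log2 fold change of 0.52 ± 0.37 (SE), from -0.34 to 1.38, did not pass (edgeR adjusted p = 0.996) and rested on single libraries, at 0.03 when CTB3-cr1 replicate 3 was left out and 0.34 without Nipponbare replicate 2. TDR (Os02g0120500, chromosome 2 from 1073553 to 1076776), an activator of tapetal cell death, had the most counts of the 8, with 4969 to 8336 in a library. It had 147, 177 and 190 FPKM in CTB3-cr1 and 243, 202 and 151 FPKM in Nipponbare. The groups overlapped, since Nipponbare replicate 3 lay within the CTB3-cr1 range. Its log2 fold change was -0.21 ± 0.20 (SE), with an interval from -0.69 to 0.26 (edgeR adjusted p = 0.996). That of EAT1, from -2.33 to -0.71, nearly meets this interval, and a difference between TDR and EAT1 was not tested.

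EAT1 (Os04g0599300, chromosome 4 from 30235422 to 30238854), the bHLH factor that acts last in the cascade and switches on protease genes of tapetal cell death, was lower in CTB3-cr1 in every library. It had 566, 672 and 606 counts in CTB3-cr1 and 1221, 2446 and 1207 in Nipponbare, or 19.3, 22.0 and 18.6 FPKM against 40.9, 92.6 and 37.6 FPKM. The 3 CTB3-cr1 libraries lay close together, with a coefficient of variation of 9.13%, against 54.2% in Nipponbare, where replicate 2 was 2.28-fold above the next library on the CPM scale. The log2 fold change was -1.52 ± 0.35 (SE), from -2.33 to -0.71, with an unadjusted p of 0.00283 and an adjusted p of 0.492 in edgeR. DESeq2 gave an adjusted p of 0.00248, and the authors' deposited table, also from DESeq2, one of 0.00252. Without Nipponbare replicate 2 the log2 fold change was -0.97 ± 0.13 (SE) with an edgeR adjusted p of 0.160, and DESeq2 then still called it. The DESeq2 call of EAT1 was lost without CTB3-cr1 replicate 3, at an adjusted p of 0.0868.

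**Figure D2:**
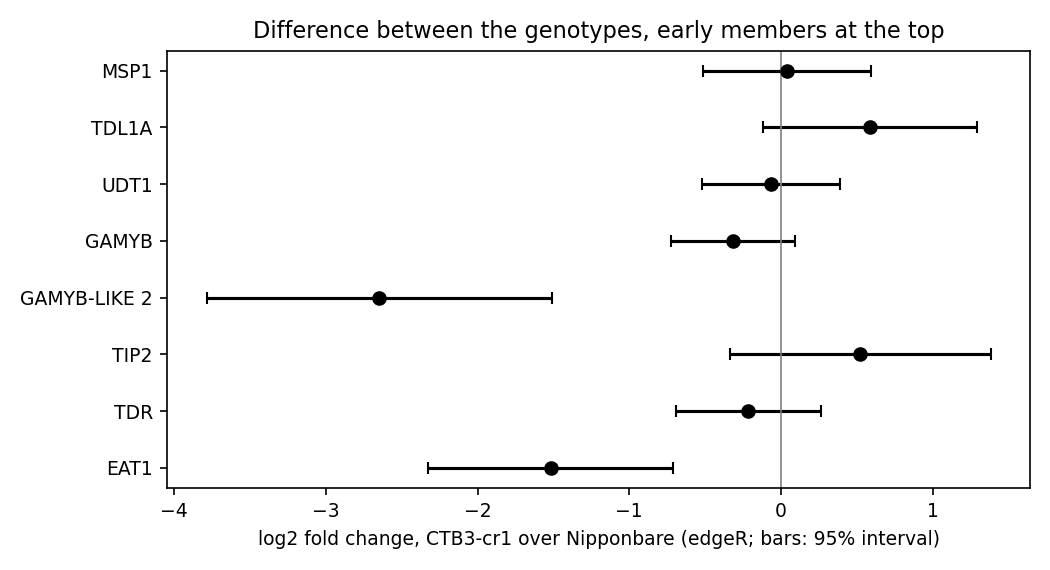
Log2 fold change of each regulator, CTB3-cr1 over Nipponbare, from edgeR with 95% intervals that are not adjusted for the number of genes, in cascade order from top to bottom. The intervals of GAMYB-LIKE 2 (-3.79 to -1.51) and EAT1 (-2.33 to -0.71) lie below 0, and those of the other 6 include 0.

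Ratios within a library do not depend on how libraries are scaled to each other, and 4 of them were compared between the genotypes. EAT1 stood at 0.697, 0.551 and 0.246 times the FPKM of TIP2 in the CTB3-cr1 replicates and at 1.05, 3.88 and 1.02 times in the Nipponbare replicates. TIP2 thus exceeded EAT1 in all 3 CTB3-cr1 libraries, and EAT1 exceeded TIP2 in all 3 Nipponbare libraries, by little in replicates 1 and 3. The difference in mean log2 ratio was -1.82 (SD 0.79 in CTB3-cr1 and 1.10 in Nipponbare, n = 3 each), with a two-sided exact permutation p of 0.1, the smallest that 3 against 3 libraries allow, and 0.2 adjusted over the 4 ratios. It was -1.18 without Nipponbare replicate 2 and -1.37 without CTB3-cr1 replicate 3.

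GAMYB-LIKE 2 stood at 0.479, 0.619 and 0.635 times the FPKM of GAMYB in CTB3-cr1 and at 1.89, 4.30 and 1.95 times in Nipponbare. GAMYB-LIKE 2 and GAMYB therefore had opposite orders of level in the genotypes, in all 6 libraries. The difference in mean log2 ratio was -2.13 (SD 0.23 and 0.67, n = 3 each), again at the smallest exact permutation p of 0.1 (0.2 adjusted), and was -1.74 without Nipponbare replicate 2. The ratio of the ligand TDL1A to its receptor MSP1 was 0.540, 0.635 and 0.653 in CTB3-cr1 and 0.433, 0.289 and 0.595 in Nipponbare, a log2 difference of 0.53 with an exact permutation p of 0.2 (0.267 adjusted), and the groups overlapped. TIP2 to UDT1 gave 3.33, 5.30 and 9.41 against 4.35, 2.64 and 5.27, a log2 difference of 0.49 with an exact permutation p of 0.4 (0.4 adjusted).

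**Figure D3:**
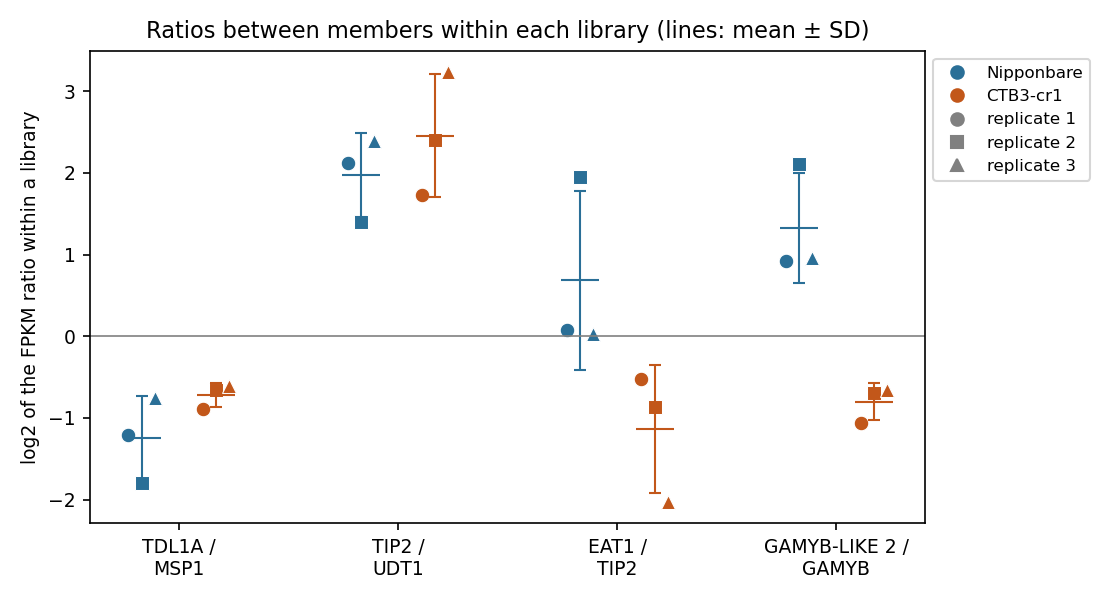
Log2 of 4 FPKM ratios between regulators within each library, 1 point per library with the mean and SD of each genotype. The EAT1 to TIP2 and GAMYB-LIKE 2 to GAMYB ratios of the genotypes lie on opposite sides of 0, while the TDL1A to MSP1 and TIP2 to UDT1 ratios overlap.

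The regulators did not vary as a block across libraries. Nipponbare replicate 2 was the highest library for 4 members (UDT1, GAMYB, GAMYB-LIKE 2 and EAT1) and the lowest for TDL1A and TIP2. CTB3-cr1 replicate 3 was the highest for MSP1, TDL1A and TIP2 and the lowest for EAT1. Relative to each gene's own mean log2 CPM, EAT1 was at 1.53 and GAMYB-LIKE 2 at 2.32 in Nipponbare replicate 2, while TDL1A was at -0.68 and TIP2 at -0.65 there. As a measure of likeness, the root mean square difference between these centred log2 CPM profiles over the 6 libraries was 0.20 for TDL1A and TIP2, which were nearest to each other, 0.18 for MSP1 and TDR, and 0.57 for EAT1 and GAMYB-LIKE 2, which were also each other's nearest member although the distance was larger. UDT1 was nearest to TDR (0.19) and GAMYB to UDT1 (0.23). Such distances grow with each gene's own spread. The root mean square of the centred profile itself was 0.13 for UDT1, 0.25 for TDR, 0.81 for EAT1 and 1.34 for GAMYB-LIKE 2. UDT1 thus lay nearer to a flat profile than to TDR, and distances are not comparable between steady and variable members. The photosynthesis markers were highest in the same Nipponbare library as EAT1 and GAMYB-LIKE 2, and the 9 of them that were tested all had values below 0 on the log2 fold change scale (median -0.21, 0 past the threshold in edgeR, 0 at an unadjusted p under 0.05). All 6 meiocyte markers had a positive log2 fold change (median 0.29, 0 past the threshold in edgeR, 0 at an unadjusted p under 0.05). The part of either in the results was not tested.

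**Figure D4:**
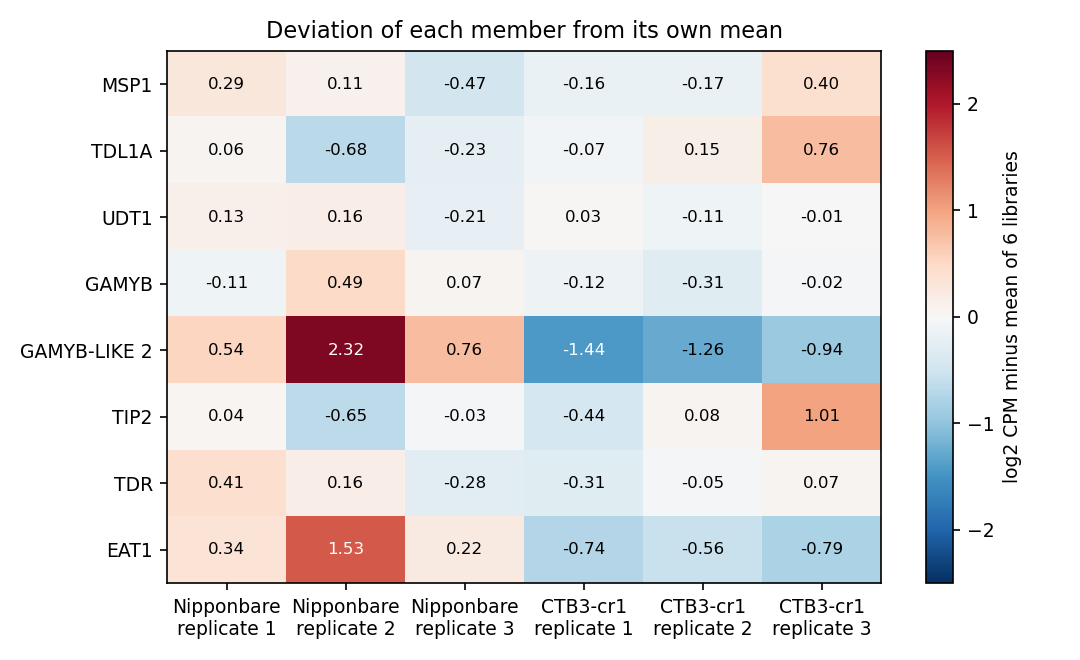
Each cell gives log2 CPM of a regulator in a library minus that gene's mean over the 6 libraries, red for above and blue for below. GAMYB-LIKE 2 and EAT1 are positive in the 3 Nipponbare and negative in the 3 CTB3-cr1 libraries, with the largest values, 2.32 and 1.53, in Nipponbare replicate 2.

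Most of the measured genes that act downstream in the tapetum had lower mean levels in CTB3-cr1, although edgeR called none of them. The list of 16 downstream tapetum genes covers proteases, lipid and polyketide enzymes, transporters, secreted proteins and a Dicer-like gene. It shares several genes that were known from earlier results to be low, so its direction is not independent evidence. Among 15 tested, the fold change was below 0 on the log2 scale in 12 and above it in 3 (50.5% of all genes tested were below 0), and the median was -0.80 against -0.00 over all genes. The 3 above 0 were ABC TRANSPORTER G FAMILY MEMBER 26 (0.69 ± 0.47 SE), DICER-LIKE 3B (0.36 ± 0.16 SE) and tetraketide alpha-pyrone reductase 1 (0.25 ± 0.82 SE). The groups overlapped in each of these. In edgeR 0 passed over all genes, 8 had an unadjusted p under 0.05 (5.25% of all genes), and in 6 all CTB3-cr1 libraries were below all Nipponbare libraries (5.36% of all genes). DESeq2 called 3 as lower: polyketide synthase 1, RAFTIN1 and CYSTEINE PROTEASE 1. Of all its genes, 0.47% were called lower. The same 3 are called in the authors' deposited table, itself from DESeq2, where 0.409% of genes were called lower. The summed level of the list was 1575, 2227 and 1371 FPKM in CTB3-cr1 and 3221, 5228 and 3017 FPKM in Nipponbare, so the sums did not overlap, and Nipponbare replicate 2, the highest library for EAT1, was the highest here too.

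Proteases known to act under EAT1 and TDR were looked at by name. Aspartic protease 25 (Os03g0186900), which EAT1 is known to activate, had 369, 394 and 288 FPKM in CTB3-cr1 and 562, 807 and 463 FPKM in Nipponbare, which is -0.80 ± 0.24 (SE) on the log2 scale, with no overlap and an edgeR adjusted p of 0.751. Its partner target aspartic protease 37 (Os04g0448500) had 0 counts in all 6 libraries, where a floor of 3 counts in the smallest library is 0.208 CPM, a limit for counting error only. CYSTEINE PROTEASE 1 (Os04g0670500), a protease associated with TDR, had 2.34, 5.33 and 2.07 FPKM against 8.58, 25.1 and 7.26 FPKM, which is -2.07 ± 0.58 (SE) on the log2 scale (edgeR adjusted p = 0.711). The groups did not overlap in either expressed protease, where 5.36% of all genes tested were lower in CTB3-cr1 without overlap. Both belong to the list chosen with earlier results known, so this is not independent evidence.

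ANTHER SPECIFIC PROTEIN 6 (Os11g0582500), an anther lipid transfer protein, had the highest mean of the downstream genes over all 6 libraries. In CTB3-cr1 its mean of 177 FPKM was below those of polyketide synthase 1 (389), aspartic protease 25 (350.5) and CYP704B2 (184). It had 191, 306 and 32.7 FPKM in CTB3-cr1 and 393, 1885 and 994 FPKM in Nipponbare, with no overlap but a wide spread within each genotype (log2 fold change -2.63 ± 0.84 SE, edgeR adjusted p = 0.773). Polyketide synthase 1 (Os10g0484800), an enzyme of pollen wall precursors, had 359, 482 and 327 FPKM against 752, 925 and 646 FPKM (log2 fold change -0.997 ± 0.217 SE, edgeR adjusted p = 0.470, DESeq2 adjusted p = 0.00113). RAFTIN1 (Os08g0496800), a secreted anther protein, is named after its values were seen, with 20.4, 11.1 and 23.5 FPKM against 51.6, 116 and 62.3 FPKM.

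Genes that act beside or before the 8 regulators had values that mostly overlapped between the genotypes. Of the early anther list 3 of 4 genes were tested and 0 passed in edgeR (0 at an unadjusted p under 0.05, 0 in DESeq2). GLUTAREDOXIN 13 (Os04g0393500) stood at 21.5 FPKM ± 4.78 (SD, n = 3) in CTB3-cr1 and 20.3 FPKM ± 2.00 (SD, n = 3) in Nipponbare, and GLUTAREDOXIN 8 (Os02g0512400) at 14.9 FPKM ± 3.83 and 13.1 FPKM ± 5.49 (SD, n = 3 each). MICROSPORELESS 1 (Os07g0151100), a glutaredoxin that early anther cells need, had 3.83, 3.76 and 8.75 FPKM against 0.451, 0 and 3.84 FPKM, with an overlap at Nipponbare replicate 3 (log2 fold change 1.89 ± 1.07 SE, edgeR adjusted p = 0.996). TDL1B, the paralog of TDL1A, lay under the expression filter, at no more than 0.219 FPKM in any library.

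Both further tapetum regulators that could be named overlapped between genotypes. Persistent tapetal cell1 (Os09g0449000), a PHD-finger regulator of tapetal cell death, had 27.9, 88.2 and 37.0 FPKM in CTB3-cr1 and 67.7, 43.0 and 39.0 FPKM in Nipponbare, with CTB3-cr1 replicate 2 highest. Its log2 fold change was 0.03 ± 0.43 (SE). Os03g0716200, a PHD-type zinc finger gene, differed by -0.08 ± 0.18 (SE) on the log2 scale.

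The transcripts of 4 genes of the gibberellin route that feeds GAMYB were close to level between the genotypes. Their median log2 fold change was 0.07, with 0 past the threshold in edgeR, DESeq2 or at an unadjusted p under 0.05. Gibberellin and protein levels were not measured, so the activity of the route is not shown. SLENDER RICE1 (Os03g0707600), the DELLA repressor of gibberellin signalling, had 145, 127 and 147 FPKM in CTB3-cr1 and 158, 158 and 174 FPKM in Nipponbare, without overlap but with a log2 fold change of only -0.23 ± 0.13 (SE). The receptor gene GIBBERELLIN INSENSITIVE DWARF1 (Os05g0407500) had 0.04 ± 0.21 (SE) and the F-box gene GIBBERELLIN-INSENSITIVE DWARF 2 (Os02g0580300) 0.19 ± 0.14 (SE), both as log2 fold changes.

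**Figure D5:**
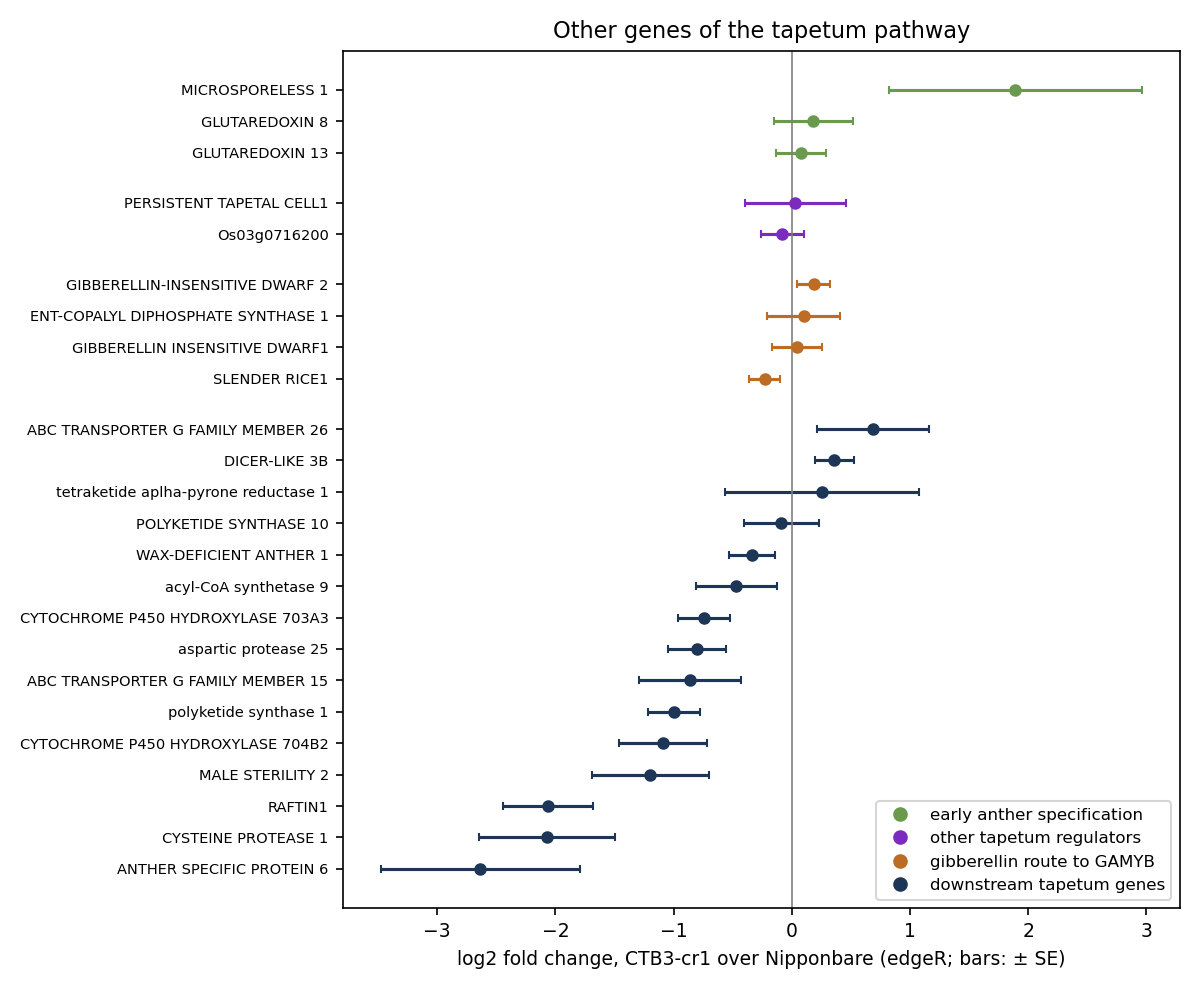
Log2 fold change with SE of each tested gene in 4 further lists, CTB3-cr1 over Nipponbare, coloured by list. The downstream tapetum genes run from -2.63 for ANTHER SPECIFIC PROTEIN 6 to 0.69, while the other 3 lists run from -0.23 to 0.19 apart from MICROSPORELESS 1 at 1.89.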

How the data were processed

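Per the file headers, the authors deposited raw counts and FPKM of each gene in 6 libraries, together with the authors' mean normalised signal per group, log2 fold changes and p-values of CTB3-cr1 against Nipponbare. Per the submitters' processing notes, fastp 0.19.7, HISAT2 and DESeq2 were used, while the sources used here name no build, annotation, counter or strand setting, so overlapping and near-identical genes are uncertain. The 2 lines without an identifier (at most 0.000478% of a library) were left out. Groups and replicate numbers came from the titles, and p-values measure the spread between these libraries.

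Counts were tested with edgeR 4.0.16 in R 4.3.3 (filterByExpr, TMM, quasi-likelihood F test, Benjamini-Hochberg over 25636 genes, threshold 0.05). SE was taken from the F statistic and the fitted difference, and the 95% intervals use it, so both are approximate. FPKM was used for levels and for ratios, which were compared by exact permutation. Alternatives were DESeq2 1.42.0, limma 3.58.1 (voom, and trend on log2 FPKM with pseudocounts of 1 and 0.1), other scalings and filters, a replicate block and each library left out. Leaving out libraries in DESeq2 was added after seeing the data. The scripts were tested on simulated data with 200 changed genes.

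The 8 members and the gene lists were chosen with earlier results of these data known. Named genes were the 8 members, any gene past the threshold and the 3 most abundant of each further list, and fixed targets of EAT1 and TDR. Of the fixed identifiers, 4 were left out because their deposited names lacked the expected word. Every pair of libraries differed beyond sampling noise (chi-square at least 13.9 per degree of freedom).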

Additional observations from a re-analysis of the deposited data

How the results depend on the processing

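The number of regulators past the threshold was 0 in edgeR and in each alternative except DESeq2, where it was 2. Of the further pathway genes, 0 passed except in DESeq2, where it was 3. Over all genes, edgeR called 20 genes, DESeq2 202, the replicate block 4, the edgeR fits without single libraries 4 to 16, and the DESeq2 fits without single libraries 107 to 341. The log2 fold change of MSP1 changed sign when a replicate 3 was left out, to -0.17 for that of CTB3-cr1 and -0.13 for that of Nipponbare, and ranged from -0.17 to 0.20 when single libraries were left out. The other 7 members and the 4 ratios kept their direction in every alternative run. For UDT1 that direction means little, since its log2 fold change was -0.0008 ± 0.23 (SE) in edgeR without Nipponbare replicate 2. With single libraries left out in edgeR, GAMYB-LIKE 2 ranged from -2.95 to -1.86 (adjusted p 0.0772 to 0.994) and EAT1 from -1.73 to -0.97 (adjusted p 0.160 to 1.00). In DESeq2, GAMYB-LIKE 2 was called in 6 of 6 such fits and EAT1 in 5 of 6. TIP2 ranged from 0.03 to 0.80, which shows how far single libraries set its value.

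Replicate numbers did not pair the libraries: deviations of same-numbered libraries correlated at -0.27, 0.37 and -0.07, and of the same-numbered pairs only that numbered 2 was a mutual best match, as were 2 pairs with different numbers. With the replicate block, 0 regulators passed, EAT1 had a log2 fold change of -1.39 and GAMYB-LIKE 2 one of -2.42, and the differences in log2 ratio were the same as without it (-1.82 for EAT1 to TIP2), at an exact sign-flip p of 0.25, the smallest that 3 pairs allow, for 3 ratios and 0.5 for TIP2 to UDT1. Depth limits TDL1A and UDT1 most, which had 55 to 189 and 98 to 116 counts in a library.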

Other observations

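The genes whose profile over the 6 libraries was nearest to a regulator were found among 5824 named genes with at least 5 CPM, by the root mean square difference of centred log2 CPM. For EAT1 they were VSR3 (Os07g0680000), annotated as similar to a vacuolar sorting receptor, at 0.16, and GLUTAMATE DEHYDROGENASE 3 (Os02g0650900) at 0.17, with log2 fold changes of -1.58 and -1.62. For GAMYB-LIKE 2 they were NOD26 LIKE INTRINSIC PROTEIN 4;1 (Os01g0112400), a channel protein gene with a mean of 281 FPKM, at 0.26, and PECTIN METHYLESTERASE 26 (Os08g0450200), a cell wall enzyme gene, at 0.27, with log2 fold changes of -2.33 and -2.46. F-box protein 95 (Os02g0543200) was among the nearest 2 of both TDL1A (0.12) and TIP2 (0.16). For TDR the nearest was A-TYPE RESPONSE REGULATOR 6 (Os04g0673300), of cytokinin signalling, at 0.05.

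Tetraketide alpha-pyrone reductase 1 (Os09g0493500), an enzyme of the pollen wall polymer named after its values were seen, was low in the library with the most EAT1. It had 8.79 FPKM in Nipponbare replicate 2, 179 and 94.0 FPKM in Nipponbare replicates 1 and 3, and 112, 133 and 92.0 FPKM in CTB3-cr1. Among the downstream genes, POLYKETIDE SYNTHASE 10 (Os07g0411300), at 45.5 FPKM, and DICER-LIKE 3B (Os10g0485600), at 4.91 FPKM, both likewise named after their values were seen, also had their lowest value of the 6 libraries there.

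The regulators differed in how variable they were between libraries of the same genotype, for their level. The estimates below come from a fit that includes genotype and draws each gene towards the trend at its abundance. The biological coefficient of variation that edgeR estimated was 0.391 for GAMYB-LIKE 2, 0.323 for TIP2 and 0.301 for EAT1, against trend values of 0.189, 0.191 and 0.193 at their abundance. It was 0.198 for UDT1, under its trend value of 0.292. Single libraries carried much of the variation. Without Nipponbare replicate 2 the SE of the log2 fold change fell from 0.49 to 0.19 for GAMYB-LIKE 2 and from 0.35 to 0.13 for EAT1. For TIP2 it fell from 0.37 to 0.26 without CTB3-cr1 replicate 3.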
